A study of Mus musculus with 6 samples.

Results

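The aryl hydrocarbon receptor pathway was followed in Ocy454 cells, a mouse osteocytic line that is a single subclone, through 7 genes of the 39179 listed in the expression table. They are the receptor gene Ahr, its partner Arnt, its repressor Ahrr, and 4 target genes, Cyp1a1, Cyp1b1, Tiparp and Nqo1. The genes were taken by symbol, but the set was chosen by measured values: it was proposed with results of these data in view, above all the low RPKM of Ahrr after parathyroid hormone (PTH). Differences between PTH and vehicle are therefore given as a description for these genes, with no p-value, and so is Ahrr between PTH and YKL-05-093. Of the 7 genes, 6 reached 0.5 RPKM (reads scaled to the length of the gene and the depth of the library) in at least 2 of the 6 libraries, and Cyp1a1 did not.

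Cells were grown to confluency at 33 °C, kept for 14 days at 37 °C and then treated for 4 h in 1 of 3 ways, with 2 libraries each. The labels give the vehicle as PBS with 25 mM HCl. The methods of the study name that solvent for mice and DMSO for compound stocks in culture, so the solvent of the vehicle cells is not settled here. The PTH group received the active fragment PTH 1-34 at 1 nM, which signals through cyclic AMP. The YKL-05-093 group received 0.5 µM of this small molecule inhibitor of salt-inducible kinases (SIKs). The paper states that the compound also targets other kinases in vitro. It reports that most of the genes measured needed SIK2 and SIK3 to respond to the compound. A smaller part still responded in cells lacking both. All groups share the same clone, and the labels name 1 vehicle for both treatments. The labels do not say that the 2 libraries of a group came from separate cultures, so the p-values measure the spread between these libraries, which may be technical. Between 17505798 and 27983585 reads per library lie behind the values. The 2 vehicle libraries differed from each other by a median of 0.33 on the log2 scale over the tested genes, against 0.11 in PTH and 0.10 in YKL-05-093. Of 13 osteocyte and osteoblast markers, 9 passed the filter, and Sost, Mepe, Fgf23 and Dkk1 did not. Their summed level was 533 to 631 RPKM in vehicle, 689 to 771 in PTH and 605 to 708 in YKL-05-093. In this sum the PTH libraries lie above vehicle, but the markers did not move together. Col1a1 is the largest part, and its PTH libraries (430 and 371 RPKM) overlap vehicle (389 and 259), as do those of Dmp1. Pdpn, Bglap, Alpl and Phex were higher in both PTH libraries than in vehicle, and Sp7, Runx2 and Pth1r were lower. Pdpn averaged 62.2 RPKM in vehicle and 167 in PTH, and Sp7 averaged 45.8 and 11.6. Blood cell, endothelial and fat cell markers had 1 gene each past the filter, cartilage markers 2 and muscle markers 0, with Cdh5, Lep and Myod1 at 0 in all libraries. Summed cartilage markers stood at 1.83 to 2.40 RPKM in vehicle and 3.29 to 3.50 in the treated libraries, and endothelial markers at 0.724 to 1.14 in vehicle, 1.14 to 1.44 in PTH and 1.95 to 2.17 in YKL-05-093, and the part of these 3 lists in the results was not tested. In bulk RNA, fewer cells of a type and less RNA per cell cannot be told apart.

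As background, the aryl hydrocarbon receptor is a transcription factor of the basic helix-loop-helix PAS family that waits in the cytosol with the chaperone HSP90 and the cochaperone p23. Dioxins, other planar aromatic compounds and tryptophan metabolites bind it, and it then enters the nucleus and pairs with ARNT on DNA at xenobiotic response elements with the core GCGTG. Its classical targets encode enzymes that oxidise foreign compounds, and some of its targets act back on it. AHRR competes for ARNT and for the element, and TIPARP adds ADP-ribose to the receptor. ARNT also partners the hypoxia-inducible factors.

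The core of the xenobiotic response element can be read in the upstream sequence of several of these genes. The 250 bases before the start given by RefSeq (GRCm38.p6) are shown for Ahrr and Cyp1b1, the members with the lowest and the highest log2 difference between PTH and vehicle, and for Cyp1a1, the textbook target that was at 0. They run 5′ to 3′ in the direction of the gene, with each GCGTG, on either strand, in capitals. Ahrr lies at chr13:74292332-74292581 on the minus strand, Cyp1b1 at chr17:79715062-79715311 on the minus strand, and Cyp1a1 at chr9:57697363-57697612 on the plus strand. The RefSeq start of Cyp1a1 lies 9685 bases downstream of the gene start in GENCODE M21. Its window is therefore inside the gene span given below.
Ahrr: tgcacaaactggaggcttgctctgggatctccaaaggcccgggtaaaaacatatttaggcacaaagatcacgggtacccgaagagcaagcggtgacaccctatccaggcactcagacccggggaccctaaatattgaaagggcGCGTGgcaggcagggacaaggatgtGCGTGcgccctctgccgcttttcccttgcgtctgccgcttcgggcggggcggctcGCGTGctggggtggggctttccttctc
Cyp1b1: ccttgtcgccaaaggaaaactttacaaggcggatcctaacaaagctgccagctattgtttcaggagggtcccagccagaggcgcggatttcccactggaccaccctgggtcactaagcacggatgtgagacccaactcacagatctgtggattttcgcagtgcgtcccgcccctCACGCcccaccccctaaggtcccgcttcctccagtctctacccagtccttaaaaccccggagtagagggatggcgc
Cyp1a1: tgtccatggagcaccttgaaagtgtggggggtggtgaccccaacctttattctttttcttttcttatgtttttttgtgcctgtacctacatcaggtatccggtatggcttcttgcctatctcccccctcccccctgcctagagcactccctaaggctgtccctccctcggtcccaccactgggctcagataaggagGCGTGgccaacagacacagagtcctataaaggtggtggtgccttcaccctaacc

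Both strands were searched for 5 motifs in these windows, and a match describes the letters only. The RefSeq table held a window for 6 of the 7 genes, and Ahr was without one. Ahrr carried GCGTG 3 times, with its first base 107, 82 and 27 bases before the start. At least 1 GCGTG was found in 28.2% of all 32841 windows, and 3 or more in 2.77%. The longer form TNGCGTG, which contains the core, was present in Ahrr at 29 bases before the start and in 4.10% of all windows. Arnt, Cyp1a1, Cyp1b1 and Tiparp each held 1 GCGTG, and Nqo1 held none of the 5 motifs. The CREB core TGACG, found in 17.8% of windows, and the full palindrome TGACGTCA, found in 1.55%, were present in Arnt alone among the 6, where the palindrome overlaps 2 of 3 TGACG matches. The antioxidant response core TGACNNNGC, found in 10.2% of windows, also occurred in Arnt alone among the 6, with 2 matches. The share of G and C was 60.4% in Ahrr and 75.2% in Tiparp, against a median of 52.4% over all windows.

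**Figure D1:**
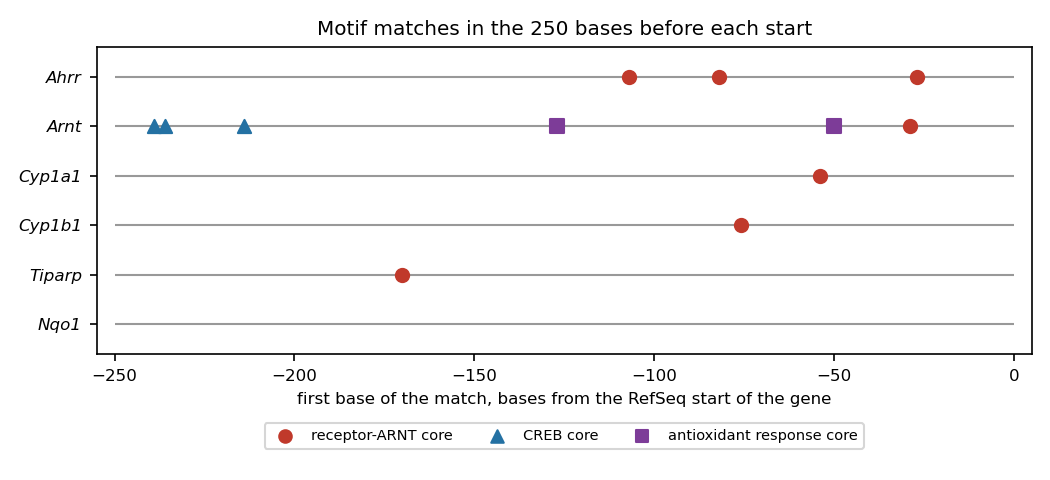
Motif matches in the 250 bases before the RefSeq start of the 6 genes with a window, by distance in bases from the start, for the receptor-ARNT core GCGTG, the CREB core TGACG and the antioxidant response core TGACNNNGC on either strand. Ahrr holds 3 receptor-ARNT cores, Arnt, Cyp1a1, Cyp1b1 and Tiparp hold 1 each, and Nqo1 holds no match.

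The repressor Ahrr had the lowest log2 differences of the 6 genes after PTH. Ahrr (ENSMUSG00000021575, chr13:74211118-74292331 on the minus strand of GRCm38) stood at 4.76 and 3.45 RPKM in the vehicle libraries, 0.629 and 0.527 in PTH, and 2.54 and 2.82 in YKL-05-093. All 3 groups are apart from each other, with PTH lowest and vehicle highest. The group means were 4.10 ± 0.929 RPKM in vehicle, 0.578 ± 0.0721 in PTH and 2.68 ± 0.199 in YKL-05-093 (SD, n = 2). The PTH mean was 14.1% of vehicle, or 7.10-fold lower, on 146 and 108 reads against 895 and 1036. A gene is called here where limma's adjusted p is under 0.05 and the change is over 2-fold. On the log2(RPKM + 0.1) scale the difference was -2.62 (SE 0.20), and 1.91% of the 14261 genes tested were called in this contrast, 0.813% as lower, which is the one that brought Ahrr to attention. With 1 library left out it lay between -2.85 and -2.39. With no filter on low values Ahrr was not called, nor was any other gene in this contrast.

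YKL-05-093 left Ahrr at 65.3% of the vehicle mean. The log2 difference was -0.58 (SE 0.20), with a 95% interval from -1.05 to -0.11 and an adjusted p of 0.423 in limma, so it did not pass the test over all genes. With 1 library left out this difference lay between -0.81 and -0.35. The adjusted p was under 0.05 in 1 of 14 alternative settings. Ahrr stood 4.63-fold lower in PTH than in YKL-05-093, a log2 difference of -2.04 (SE 0.12), given as a description. With 1 library left out it lay between -2.15 and -1.93.

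**Figure D2:**
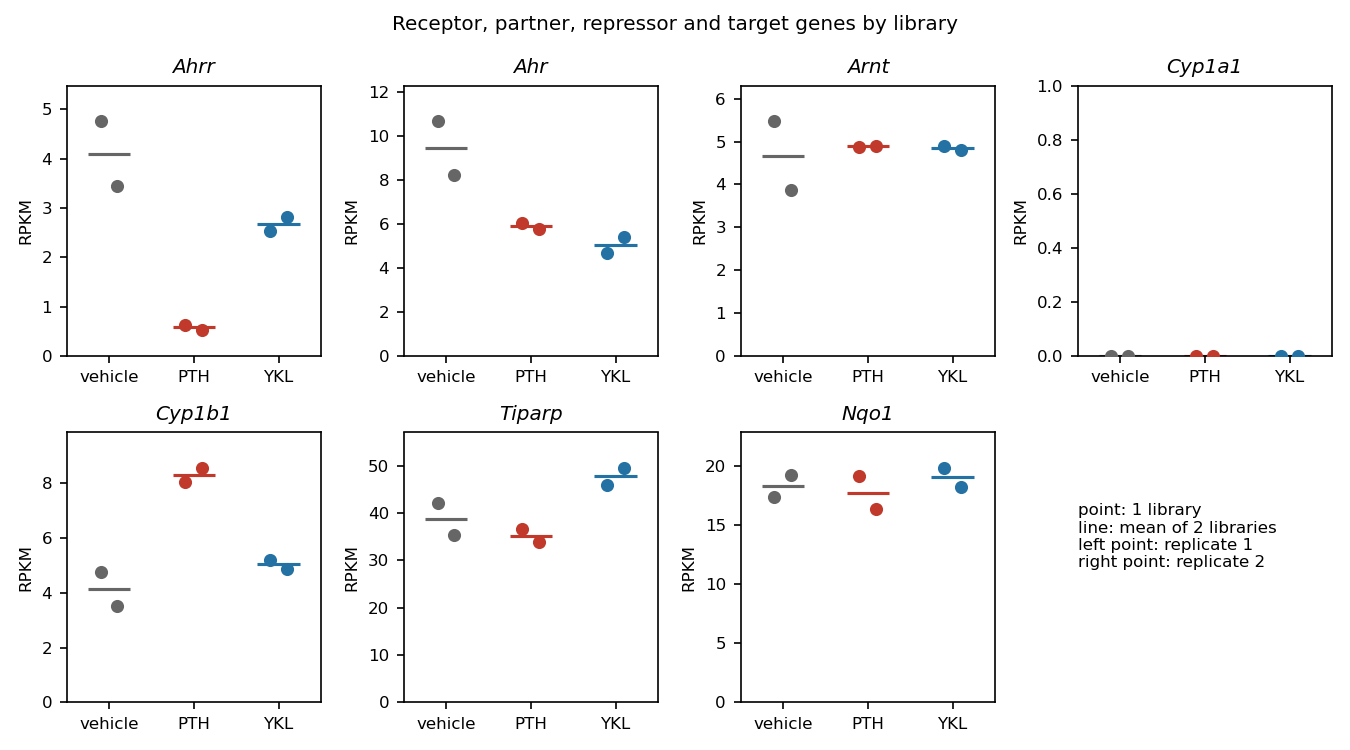
RPKM of the 7 genes in each of the 6 libraries, on linear axes from 0, with 1 point per library and a line at the mean of each group. The PTH libraries lie lowest for Ahrr and highest for Cyp1b1, both treatments lie below vehicle for Ahr, and Cyp1a1 is at 0 in all 6 libraries.

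The receptor gene itself was lower than vehicle in both treatments by less than 2-fold, and neither difference was called. Ahr (ENSMUSG00000019256, chr12:35497974-35535038, minus strand) stood at 10.7 and 8.20 RPKM in vehicle, 6.06 and 5.75 in PTH and 4.66 and 5.38 in YKL-05-093. No vehicle library overlaps a treated one, and the PTH libraries lie above those of YKL-05-093. The YKL-05-093 mean was 53.2% of vehicle, a log2 difference of -0.89 (SE 0.19, 95% interval -1.33 to -0.44, adjusted p = 0.131 in limma). The adjusted p was under 0.05 in 3 of 14 alternative settings, among them the limma fit of all 6 libraries together, with 0.0345. With 1 library left out the difference lay between -1.08 and -0.70. The PTH mean was 62.6% of vehicle, a log2 difference of -0.65 (SE 0.18). Between PTH and YKL-05-093 the difference was 0.23 (SE 0.09, 95% interval 0.05 to 0.42, adjusted p = 0.113). Ahr shares 127 exon bases with the lincRNA Gm48236 on the opposite strand, and whether the counting used strand is not given in the sources used here.

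The partner Arnt varied more between the vehicle libraries than between the groups. Arnt (ENSMUSG00000015522, chr3:95434388-95497240, plus strand) stood at 5.47 and 3.87 RPKM in vehicle, 4.88 and 4.90 in PTH and 4.89 and 4.80 in YKL-05-093. The 4 treated libraries fall between the 2 vehicle libraries. The log2 difference was 0.09 (SE 0.20) for PTH and 0.07 (SE 0.20, 95% interval -0.40 to 0.55, adjusted p = 0.958 in limma) for YKL-05-093 against vehicle. Between the treatments it was 0.01 with an interval from -0.15 to 0.18. Leaving out the second vehicle library turned the sign of both differences from vehicle, to -0.16 and -0.17.

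Ahr exceeded Ahrr by a different factor in each group, as levels per length within a library. Ahr over Ahrr was 2.24 and 2.38 in vehicle, 9.62 and 10.9 in PTH and 1.83 and 1.91 in YKL-05-093. The PTH libraries stand well above the other 4, and the YKL-05-093 libraries lie just below vehicle. Ahr over Arnt was 1.95 and 2.12 in vehicle, 1.24 and 1.17 in PTH, and 0.952 and 1.12 in YKL-05-093. The 2 vehicle libraries agree more closely in these ratios than in the single levels, as the first vehicle library was higher for Ahr, Ahrr and Arnt alike, by 0.38, 0.45 and 0.49 on the log2 scale. The ratios reuse the values that chose Ahrr, and no test was made on them.

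**Figure D3:**
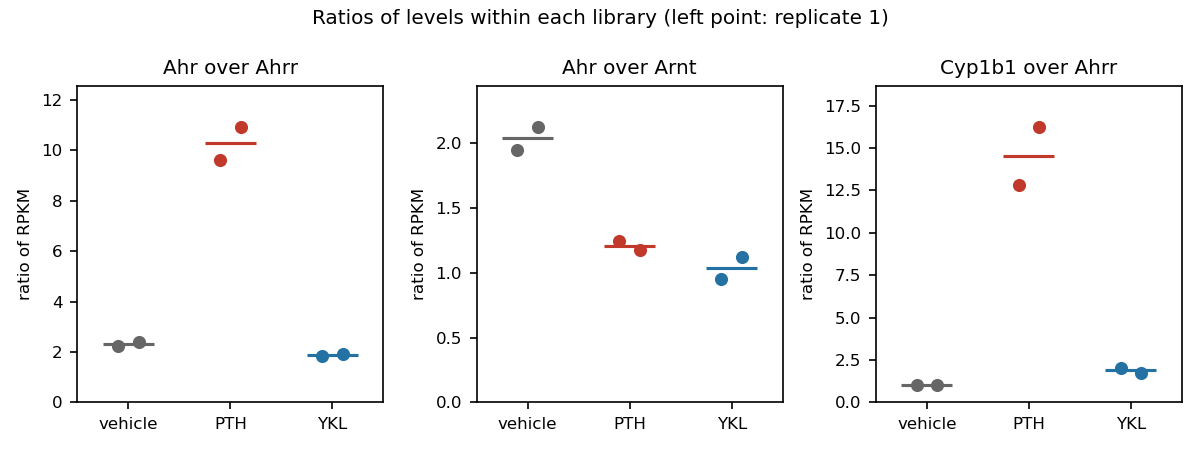
Ratio of RPKM values within each library for Ahr over Ahrr, Ahr over Arnt and Cyp1b1 over Ahrr, on linear axes from 0, with 1 point per library and a line at the group mean. Ahr over Ahrr averages 2.31 in vehicle, 10.3 in PTH and 1.87 in YKL-05-093.

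Among the targets, Cyp1a1 and Cyp1b1 were far apart in level. Cyp1a1 (ENSMUSG00000032315, chr9:57687928-57703824, plus strand), whose enzyme is the classical marker of receptor activation, had 0 reads in each of the 6 libraries. A count of 0 allows up to 3 reads, which for its 2779 bases of merged exons is between 0.0386 and 0.0617 RPKM, counting error only. No change in Cyp1a1 was detectable at this depth in any comparison. Cyp1a2, its neighbour in the family, was likewise listed at 0 in all 6.

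Cyp1b1 (ENSMUSG00000024087, chr17:79701537-79715061, minus strand), which encodes a steroid and aromatic hydrocarbon hydroxylase, stood at 4.76 and 3.53 RPKM in vehicle, 8.05 and 8.55 in PTH and 5.20 and 4.87 in YKL-05-093. The PTH libraries lie above all others, and the YKL-05-093 libraries just above vehicle. The PTH mean was 2.00 times vehicle, a log2 difference of 1.00 (SE 0.19), given as a description. With 1 library left out it lay between 0.79 and 1.21. For YKL-05-093 against vehicle the log2 difference was 0.29 (SE 0.19, 95% interval -0.16 to 0.74, adjusted p = 0.793 in limma).

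Cyp1b1 was 1.65 times higher in PTH than in YKL-05-093, a log2 difference of 0.71 (SE 0.08, 95% interval 0.54 to 0.88, adjusted p = 1.70e-05 in limma), so it passed the adjusted p by less than 2-fold. The PTH libraries are also those of the contrast with vehicle that was in view when the genes were chosen, so the value is no independent evidence. In this contrast 9.96% of genes had an adjusted p under 0.05 at any fold, 4.85% higher and 5.11% lower. With all 6 libraries in 1 fit, whose spread includes that of vehicle, the adjusted p was 0.120, and without the first or the second PTH library it was 0.144 or 0.152.

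Tiparp (ENSMUSG00000034640, chr3:65528410-65555518, plus strand), which encodes the ADP-ribosyltransferase that restrains the receptor, was the most abundant of the 7 genes per length. It stood at 42.2 and 35.4 RPKM in vehicle, 36.6 and 33.9 in PTH and 46.0 and 49.6 in YKL-05-093. Both YKL-05-093 libraries lie above the other 4, and the PTH libraries overlap vehicle. PTH was at 73.7% of YKL-05-093, a log2 difference of -0.44 (SE 0.07, 95% interval -0.59 to -0.29, adjusted p = 0.000438 in limma), again by less than 2-fold. With all 6 libraries in 1 fit the adjusted p was 0.322, and leaving out any 1 of the 4 libraries gave 0.0556 to 0.222. For YKL-05-093 against vehicle the difference was 0.30 (SE 0.18, 95% interval -0.11 to 0.72, adjusted p = 0.758), and for PTH against vehicle it was -0.13 (SE 0.18). Tiparp shares 223 exon bases with the pseudogene 4931440P22Rik on the opposite strand, which held 36 to 70 reads against 2682 to 4269 for Tiparp.

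Nqo1 (ENSMUSG00000003849, chr8:107388225-107403206, minus strand), a quinone reductase under both the aryl hydrocarbon receptor and the oxidative stress factor NRF2, did not separate the groups. It stood at 17.4 and 19.2 RPKM in vehicle, 19.1 and 16.3 in PTH and 19.9 and 18.3 in YKL-05-093. The groups overlap in each comparison with PTH and between YKL-05-093 and vehicle. The log2 difference was -0.05 (SE 0.17) for PTH against vehicle and 0.06 (SE 0.16, 95% interval -0.32 to 0.44, adjusted p = 0.958 in limma) for YKL-05-093 against vehicle. Between the treatments it was -0.11 with an interval from -0.31 to 0.09, and leaving out single libraries turned the sign in all 3 comparisons.

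**Figure D4:**
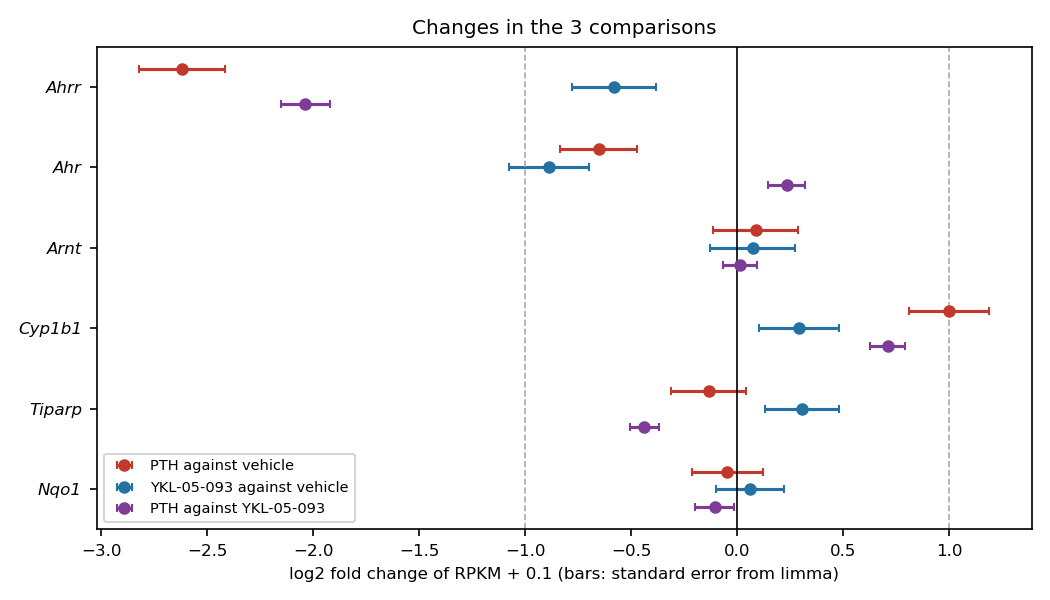
Log2 fold change of RPKM + 0.1 for the 6 tested genes in the 3 comparisons, with bars of 1 standard error from limma and dashed lines at a 2-fold change. Ahrr lies at -2.62 and -2.04 in the comparisons with PTH, Cyp1b1 at 1.00 and 0.71, and Arnt and Nqo1 lie near 0 in all 3.

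Counted over the 6 tested genes, PTH against vehicle gave 0 called higher and 1 called lower, Ahrr, a count that the choice of genes fixed and from which nothing is read. YKL-05-093 against vehicle gave 0 calls, where 0.666% of 14255 genes were called in limma and 1236 (8.67%) had an unadjusted p under 0.05. PTH against YKL-05-093 gave 1 called lower, again Ahrr and again by that choice, where 1.21% of genes were called, 0.470% as lower. Over all genes, the groups did not overlap for 43.1%, 37.8% and 50.0% in the 3 comparisons, beside 3, 4 and 4 of the 6 members. The median log2 difference over the 6 genes was -0.09, 0.07 and -0.05, against -0.03, -0.04 and 0.01 over all genes tested.

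Of 12 other genes known as receptor targets, 7 were tested, and Aldh3a1 was the single one called, in both comparisons with PTH, where 1.91% and 1.21% of all genes were called. Aldh3a1, which encodes an aldehyde dehydrogenase induced by dioxin in liver, stood at 3.43 and 3.02 RPKM in vehicle, 13.6 and 12.5 in PTH and 3.93 and 4.07 in YKL-05-093. The PTH libraries lie well above the other 4. Aldh3a1 rose with PTH by 1.99 on the log2 scale over vehicle (SE 0.17, adjusted p = 0.00217 in limma). It was higher in PTH than in YKL-05-093 by 1.68 (SE 0.11, adjusted p = 3.23e-08 in limma). The list was chosen with earlier results of these data known, so these p-values are no independent evidence. The call against vehicle was lost without the first or the second PTH library, with adjusted p of 0.0908 and 0.0802, and with no filter on low values, with 0.0554. The call against YKL-05-093 was lost without the first or the second PTH library, with 0.127 and 0.120. Against vehicle, YKL-05-093 gave 0.31 (adjusted p = 0.764).

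The other named targets in that list differed less. Cdkn1b, a cell cycle inhibitor, stood at 28.3 RPKM in vehicle, 38.5 in PTH and 46.7 in YKL-05-093 on average, and passed the adjusted p in PTH against YKL-05-093 alone, at -0.28 (adjusted p = 0.00991). Slc7a5, a subunit of an amino acid transporter that carries tryptophan and kynurenine, stood at 25.8, 19.7 and 20.1 RPKM, and Nfe2l2, which encodes NRF2, at 24.7, 29.2 and 24.9. Neither passed in any comparison. Il6, singled out after its values were seen, had 3 and 10 reads in vehicle and 21 to 30 in the treated libraries. It passed the filter through the treated libraries alone, with 0.158 and 0.330 RPKM in vehicle. Its log2 differences from vehicle, 1.90 for PTH and 1.87 for YKL-05-093, are therefore a description, with no p-value.

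The cytosolic complex of the receptor and its direct partners held no called gene, where 1.91%, 0.666% and 1.21% of all genes were called in the 3 comparisons. All 6 genes of that list were tested, with median log2 differences of 0.00, -0.01 and 0.01 in the 3 comparisons. Hsp90ab1, the main HSP90 chaperone gene, averaged 586 RPKM in vehicle, 582 in PTH and 609 in YKL-05-093. Ptges3, which encodes p23, averaged 83.5, 78.4 and 73.2. Among 19 other genes of proteins with PAS domains, coactivators included, 12 were tested and 0 were called, against the same shares. In PTH against YKL-05-093 the clock genes Arntl (0.67) and Per2 (0.62) were higher and Per1 (-0.73) was lower at an adjusted p under 0.05, each by less than 2-fold, beside 4.85% of all genes higher and 5.11% lower. Clock averaged 10.3, 7.38 and 7.34 RPKM and Hif1a 33.2, 24.8 and 27.8, and neither passed in any comparison.

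The pathways that meet the receptor through NRF2 and ARNT were also without a called gene, beside 1.91%, 0.666% and 1.21% of all genes in the 3 comparisons. All 15 NRF2 targets were tested, with medians of 0.06, 0.06 and 0.15. In PTH against YKL-05-093, 5 of the 15 were higher at an adjusted p under 0.05, against 4.85% of all genes, and 0 were lower. They were Fth1, ferritin heavy chain (0.62), Hmox1, heme oxygenase 1 (0.57), Srxn1 (0.42), Gclc (0.32) and Txnrd1 (0.25), while Prdx1 and Ftl1, the other abundant genes of the list, did not pass, at 0.10 and 0.12. All 12 hypoxia targets of the HIF-ARNT pair were tested, with medians of -0.25, -0.08 and -0.17. In both comparisons with vehicle 10 of the 12 lay below 0, and the comparisons share the vehicle libraries. The median over all tested genes was itself below 0 there, at -0.03 for PTH and -0.04 for YKL-05-093. Between the treatments Bnip3 (-0.44), Ankrd37 (-0.66) and Pdk1 (-0.36) were lower and Vegfa (0.37) and Ddit4 (0.32) higher with PTH at an adjusted p under 0.05, beside 5.11% and 4.85% of all genes. With all 6 libraries in 1 fit, 0 of the list genes that differed by less than 2-fold here passed, with adjusted p from 0.0883 for Fth1 to 0.740 for Txnrd1 in limma, and 0 passed without the first or without the second PTH library. Slc2a1 and Ldha, the glucose transporter and lactate dehydrogenase of that list, did not pass, at -0.17 and -0.10. Of 7 genes of tryptophan and kynurenine breakdown, a source of receptor ligands, Afmid alone passed the filter. Its log2 difference between the treatments was 0.09, and Ido2 and Il4i1 did not pass the filter.

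**Figure D5:**
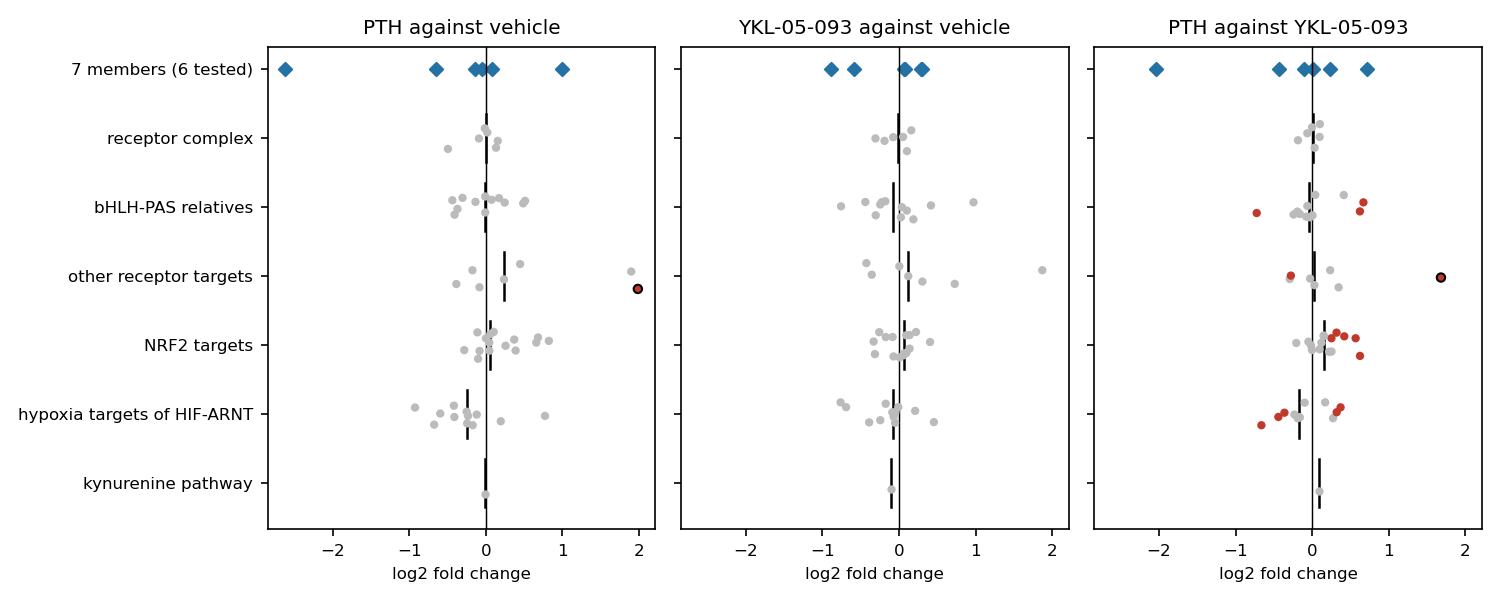
Log2 fold change of every tested gene of the 6 lists, with the 6 tested members as diamonds, in the 3 comparisons. Red points passed an adjusted p of 0.05 in limma, those with a black edge are called, and a vertical bar marks the median of each list. Aldh3a1 is the called point among the other receptor targets, at 1.99 in PTH against vehicle and 1.68 in PTH against YKL-05-093.

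The genes whose profiles over the 6 libraries lay closest to those of the members were sought over the 12346 genes that averaged 1 RPKM or more, by Euclidean distance of log2 values centred on each gene. The distances are descriptions over 6 libraries of 3 groups. Closest to Ahrr were Dtx4 (distance 0.61), Fgd3 (0.74) and Slc22a23 (0.79). Dtx4, an E3 ubiquitin ligase gene of the Notch pathway, stood at 4.85 and 4.18 RPKM in vehicle, 1.10 and 0.847 in PTH and 2.72 and 3.57 in YKL-05-093, the same order of groups as Ahrr. Closest to Ahr were Foxo1, Rai14 and Mat2a, at distances of 0.13 to 0.15, and closest to Cyp1b1 were Efnb2, Ccdc152 and Tshz3, at 0.22 to 0.27. Foxo1, a forkhead transcription factor gene, averaged 2.99, 1.90 and 1.68 RPKM, and Efnb2, which encodes the ligand ephrin-B2, averaged 4.22, 8.50 and 5.87. Armcx3, Cnot2 and Gpcpd1 were closest to Tiparp, Gm5578, Kdm4a and Zbtb43 to Arnt, and Rrnad1, Rab9 and Cd68 to Nqo1.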

How the data were processed

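RNA was sequenced from Ocy454 cells after rRNA depletion with a directional kit. The authors used STAR with the mm10/GRCm38 genome, then HTSeq 0.6.0 with Ensembl release 75, and deposited linear RPKM values per library, without scaling between libraries. Whether the counting used strand is not given in the sources used here. Whole reads were recovered from the steps between RPKM values for all 26214 genes above 0, within 0.01 reads. From log2(RPKM + 0.1), limma 3.58.1 in R 4.3.3 tested genes that reached 0.5 RPKM in 2 or more of 6 libraries, with a fit of 4 libraries per comparison, the prior variance as a trend on mean log2 recovered reads, and Benjamini-Hochberg adjustment over all tested genes. An exact permutation test of 2 against 2 libraries cannot go below p = 0.333 and was not used. Named genes were the 7 members, the called genes and the 3 most abundant of each list, and the 3 profiles nearest to each member, apart from an item that is not reported here. A gene outside these is named where a list holds 5 or fewer that passed the adjusted p. Cyp1a2, cell type markers and Il6 are named besides, Il6 after its values were seen. Positions came from GENCODE M21 and upstream windows from RefSeq GRCm38.p6. The members, lists and test settings were chosen with earlier results of these data known. The test was tried on simulated data with known changes.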

Additional observations from a re-analysis of the deposited data

How the results depend on the processing

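Alternatives were tried for the 6 tested members and Aldh3a1 in all 3 comparisons. For the list genes that passed the adjusted p between the treatments, they were tried in that comparison alone. The other named genes were not tried. Among the fold changes tried, 8 alternative values turned sign. The turned values were those of Arnt and Nqo1 with 1 library left out. For Arnt the range was -0.16 to 0.33 in PTH against vehicle, -0.17 to 0.32 in YKL-05-093 against vehicle and -0.00052 to 0.0268 between the treatments. For Nqo1 it was -0.161 to 0.0647, -0.0151 to 0.13 and -0.22 to 0.0057. The differences between the treatments that passed the adjusted p by less than 2-fold passed it again in 5 (Per2) to 10 (Cyp1b1, Fth1 and Per1) of 14 alternatives.

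The number of called genes moved far more. For PTH against vehicle (272) it was 0 with no filter (2343 at an unadjusted p under 0.05), 160 with the spread as a trend on the mean RPKM, 130 with no trend, and 14 to 669 with 1 library left out. For YKL-05-093 against vehicle (95) it was 55 with a pseudocount of 1 RPKM, 0 with no filter (1734 unadjusted), 173 with 1 fit of all 6 libraries, 6 with the spread on the mean value, 29 with no trend, and 11 to 321 with 1 library left out. For PTH against YKL-05-093 (172) it was 98 with a pseudocount of 1 RPKM, 102 with 1 fit, 51 with no trend, and 0 to 155 with 1 library left out (2130 and 2022 unadjusted without the first and the second PTH library, in limma). For PTH against vehicle the fit without a filter covered 25085 genes in place of 14261. Between the treatments it covered 24323 genes and called 149. The cause of the shifts was not tested. A lone library was assumed to vary like the other group.

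The labels do not say whether libraries with the same replicate number were handled together. Over the tested genes, same-numbered libraries deviated with correlations of -0.03, -0.05 and -0.05, which cannot settle this for single genes. A fit with the replicate number as a block called 440, 215 and 196 genes in the 3 comparisons, and gave Ahr in YKL-05-093 against vehicle an adjusted p of 0.0319. Median-ratio scaling shifted all genes by 0.03, 0.04 and -0.01. At this depth no comparison of Cyp1a1 was possible, and with 2 libraries per group the spread is known only roughly.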
